A study of Sus scrofa with 16 samples.

Results

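The 10 genes described here are markers of microglia and macrophages, the resident phagocytes of the brain and of other organs: C1QA, C1QB, C1QC, CSF1R, AIF1, CD68, TYROBP, CX3CR1, CD163 and MRC1. They were taken by symbol from the deposited count table, in which each of the 10 had its own row among 25880 genes, and all 10 were among the 14319 genes that passed the filter on low counts. The libraries came from whole pituitaries of 16 gilts of the Puławska, a native Polish pig breed, with 1 library per animal. The 8 LFC animals (libraries LFC 1 to LFC 8) had low and the 8 HFC animals (HFC 9 to HFC 16) had high feed conversion, the amount of feed used per unit of weight gain, and nothing else in the labels differs between the groups. All were females labelled as 3 months of age, although the methods of the study give a higher age at slaughter. According to those methods the animals were unrelated, came from different farms and were kept and fed alike at 1 station. The study reports that the HFC animals of this breed also gained less weight per day, ate more per day and spent more days in test. Some ham and fat measures differed too. Since glands were homogenised, every value is an average over the lobes that a sample held, and the share of each lobe was not measured. Levels of posterior lobe genes differed widely between the libraries, as given below. Fewer cells of a type cannot be told apart from less RNA per cell.

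Tissue macrophages and microglia depend on signals through the receptor CSF1R and carry the adaptor TYROBP, which passes signals from activating surface receptors into the cell. They are a main source of complement C1q, which tags cells and debris for uptake. In the pituitary, such cells lie among the hormone-producing cells of the anterior lobe, and in the posterior lobe microglia sit beside pituicytes, the local astroglia, and the endings of vasopressin neurons. For that reason the 10 genes were also set against AVP, the vasopressin gene, whose mRNA is found in nerve fibres of the posterior lobe, and against GFAP, an intermediate filament gene of astroglia and pituicytes.

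Total counts were 10.973 to 23.06 M per library, and the lowest and highest counts of any of the 10 genes in a library were 26 and 2458. Levels are given as CPM, the count of a gene relative to the total of its library, after TMM scaling, a correction for the composition of each library. CPM is not divided by gene length, so levels are compared between libraries and not between genes. On the first principal component of all tested genes, which held 41.8% of the variance, LFC 5 (126), HFC 13 (75.1) and HFC 14 (56.6) lay farthest out. HFC 16 lay farthest out on the second, at 86.7.

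The C1q subunits A, C and B are encoded side by side on chromosome 6 of Sscrofa11.1, at 80586183 to 80591269 (C1QA, ENSSSCG00000003524), 80592198 to 80599440 (C1QC, ENSSSCG00000038706) and 80601303 to 80608011 (C1QB, ENSSSCG00000033512). The 3 gene spans fit within 21829 bases and do not overlap. CSF1R (ENSSSCG00000014441, chromosome 2, 151099084 to 151129407) shares part of its span with HMGXB3, and CD68 (ENSSSCG00000017956, chromosome 12, 52874754 to 52877704) with EIF4A1 and KDM6B. The libraries keep no strand, so the counts of CSF1R and CD68 are uncertain where these genes overlap. No other member overlapped a gene of the deposited table.

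The first comparison asked whether the markers differed between gilts of low and high feed conversion. None of the 10 passed edgeR's quasi-likelihood test (adjusted p of 0.05 or less and a fold of 1.3 or more), nor did any other gene of the table (0 of 14319 genes, 0%). At an unadjusted p under 0.05, 834 genes differed, 615 of them (4.29% of those tested) higher in HFC and 219 (1.53%) lower. Of the 10 markers, CX3CR1 alone was among the former and none was among the latter. CX3CR1, CSF1R and AIF1 are also among the genes that the study reported as differing in this breed. It used DESeq2 at the same thresholds on these libraries, so the directions of these 3 are not independent of that list. Run here, DESeq2 called 20 genes and limma-voom with library weights called 0, with no marker in either. Why this differs from the calls of the study was not tested. The median log2 fold change of the 10 (HFC over LFC) was 0.26 and 7 of the 10 were above 0, while over all tested genes the median was -0.01 and 48.4% were above 0. The number of markers above 0 was 10 under upper quartile scaling and 9 under scaling by total count: of the 3 below 0, all close to it, C1QA and CD163 changed side under both and MRC1 under the former.

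CX3CR1 (ENSSSCG00000024024, chromosome 13, 23944369 to 23957486), the receptor for fractalkine that is abundant on microglia, showed the largest difference. In LFC its level had a lowest value of 1.33, a median of 2.596 and a highest value of 4.89 CPM, and in HFC of 1.70, 5.88 and 24.1 CPM. Of the 8 HFC libraries, 5 lay above all LFC libraries, whereas HFC 12, HFC 13 and HFC 15 lay within the LFC range, so the groups overlapped. The highest level was that of HFC 16, followed by HFC 14 at 10.96 CPM. The log2 fold change was 1.51 (SE 0.47, unadjusted p = 0.00532, edgeR adjusted p = 0.612). Without HFC 16 it was 1.002 (edgeR unadjusted p = 0.0209, adjusted p = 1), without LFC 5 it was 1.49 (edgeR unadjusted p = 0.00908, adjusted p = 0.355), and with AVP as a covariate it was 1.13 (edgeR unadjusted p = 0.0293, adjusted p = 0.988). DESeq2 gave 1.502 with an adjusted p of 0.193, and limma-voom with library weights 0.88 with an unadjusted p of 0.0369 and an adjusted p of 0.615.

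**Figure D1:**
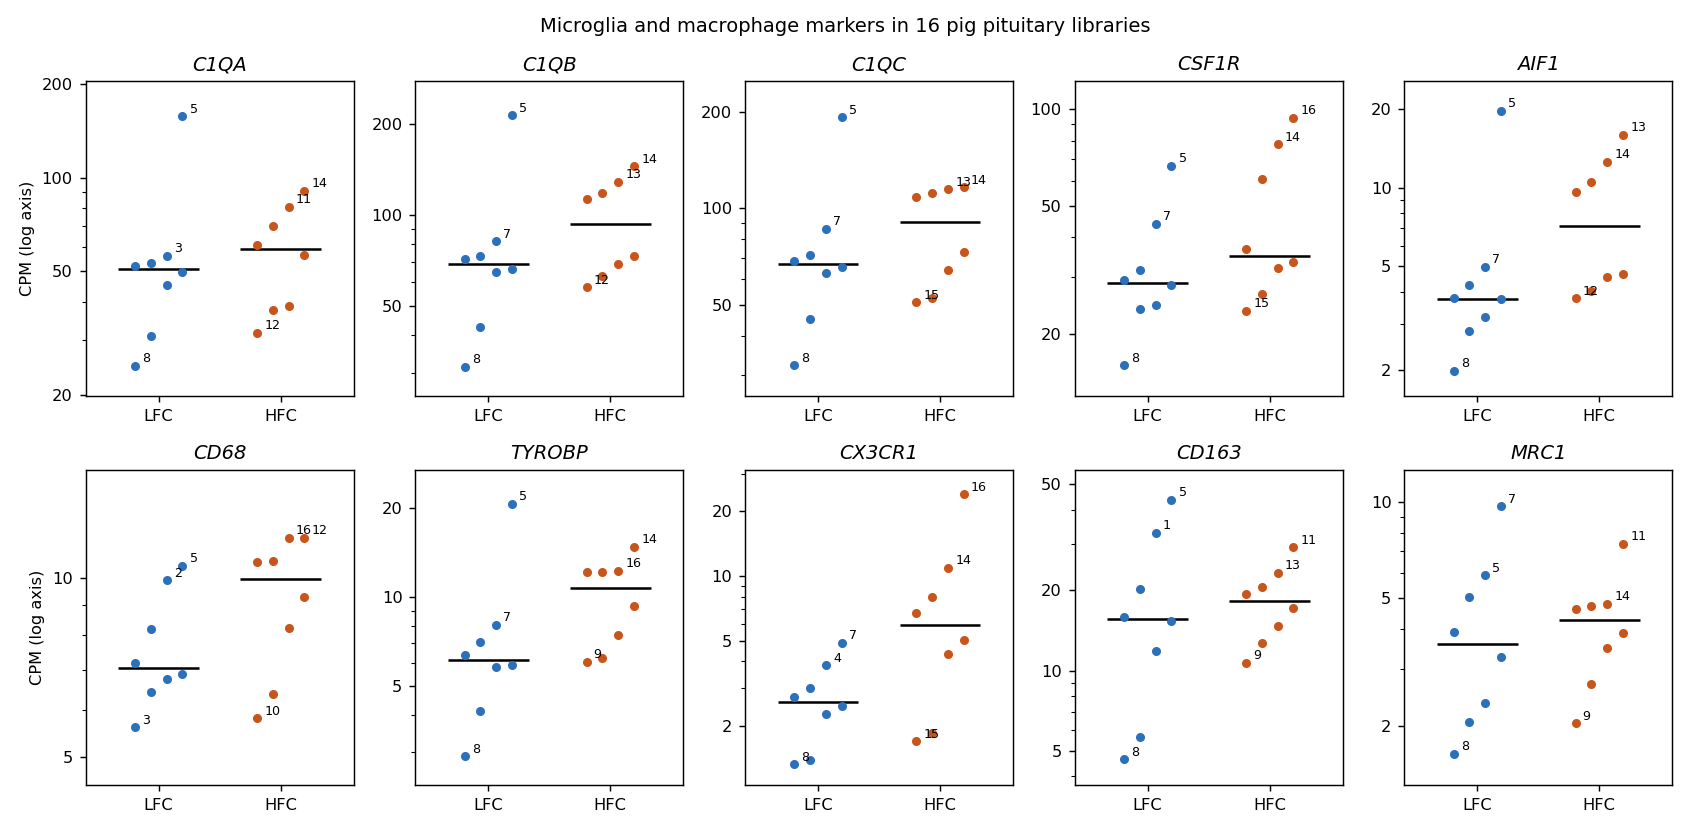
Levels of the 10 markers in the 8 LFC (blue) and 8 HFC (orange) libraries, as TMM-scaled CPM on a log axis. Each point is a library, the black line is the median of the group, and numbers name the lowest and the 2 highest libraries of each group. LFC 5 stands above the other LFC libraries for the C1q genes, AIF1 and TYROBP, whereas CX3CR1 and CSF1R are highest in HFC 16.

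CSF1R, the receptor for the growth factors CSF1 and IL34, was the marker whose level over the libraries went most closely with that of CX3CR1 (Pearson r = 0.78). It ranged from 15.9 to 66.6 CPM in LFC (median 28.8) and from 23.5 to 94.4 CPM in HFC (median 35.0). HFC 16 and HFC 14 exceeded every LFC library, and the other 6 HFC libraries lay within the LFC range. The log2 fold change was 0.55 (SE 0.32, unadjusted p = 0.109, edgeR adjusted p = 0.957). It was 0.33 without HFC 16 and 0.77 without LFC 5.

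The C1q genes themselves showed no difference between the groups beyond the spread of the animals. C1QB averaged 80.7 ± 56.5 CPM among the LFC and 96.0 ± 34.2 CPM among the HFC libraries (SD, n = 8 each), and gave a log2 fold change of 0.25 (95% interval -0.39 to 0.89). C1QC had means of 78.2 ± 49.2 and 86.5 ± 29.1 CPM with a log2 fold change of 0.15 (95% interval -0.45 to 0.75). For C1QA the means were 58.7 ± 41.4 and 58.4 ± 21.5 CPM and the log2 fold change was 0.00 (95% interval -0.65 to 0.64). The LFC mean of each rested on LFC 5, which at 157, 214 and 193 CPM for C1QA, C1QB and C1QC exceeded every other library of either group. Without LFC 5 the log2 fold change was 0.64 for C1QB (unadjusted p = 0.0166, edgeR adjusted p = 0.368), 0.49 for C1QC and 0.39 for C1QA.

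TYROBP (ENSSSCG00000002919, chromosome 6, 45309201 to 45312539) and AIF1, the calcium-binding protein also known as Iba1 (ENSSSCG00000032341, chromosome 7, 23729215 to 23734949), had the same feature. TYROBP ranged from 2.91 to 20.7 CPM in LFC (median 6.12) and from 6.05 to 14.8 CPM in HFC (median 10.8), and AIF1 from 1.99 to 19.7 CPM (median 3.76) and from 3.78 to 15.9 CPM (median 7.17). All 8 HFC libraries lay above the LFC median for AIF1 and 7 of 8 for TYROBP, but LFC 5 lay above every HFC library for both. Their log2 fold changes were 0.41 (SE 0.33) and 0.57 (SE 0.46), with edgeR unadjusted p of 0.237 and 0.228 and an adjusted p that rounds to 1 for both. Without LFC 5 they were 0.81 and 1.21, with edgeR unadjusted p of 0.00436 and 0.00222 and an adjusted p of 0.338 for both.

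CD68, a glycoprotein of the macrophage lysosome, varied least. It ranged from 5.61 to 10.5 CPM in LFC (median 7.05) and from 5.81 to 11.7 CPM in HFC (median 9.95). Of the HFC libraries 4 lay above every LFC library, and HFC 10 and HFC 13 were near the bottom of both groups. The log2 fold change was 0.28 (SE 0.18, edgeR unadjusted p = 0.150, adjusted p = 0.992).

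The scavenger receptors gave means that were almost equal. CD163, the haptoglobin-haemoglobin receptor (ENSSSCG00000033146, chromosome 5, 63300146 to 63334537), averaged 18.8 ± 13.4 CPM among LFC and 18.5 ± 5.98 CPM among HFC libraries (SD, n = 8 each). MRC1, the mannose receptor CD206 (ENSSSCG00000011038, chromosome 10, 44107072 to 44226925), averaged 4.23 ± 2.65 and 4.22 ± 1.63 CPM. Within LFC, CD163 ran from 4.65 CPM in LFC 8 to 43.7 CPM in LFC 5 and MRC1 from 1.63 CPM in LFC 8 to 9.69 CPM in LFC 7, a range that held every HFC library. The log2 fold changes were -0.02 (95% interval -0.77 to 0.73) and 0.00 (95% interval -0.69 to 0.68), so true differences of a size within those bounds remain possible.

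**Figure D2:**
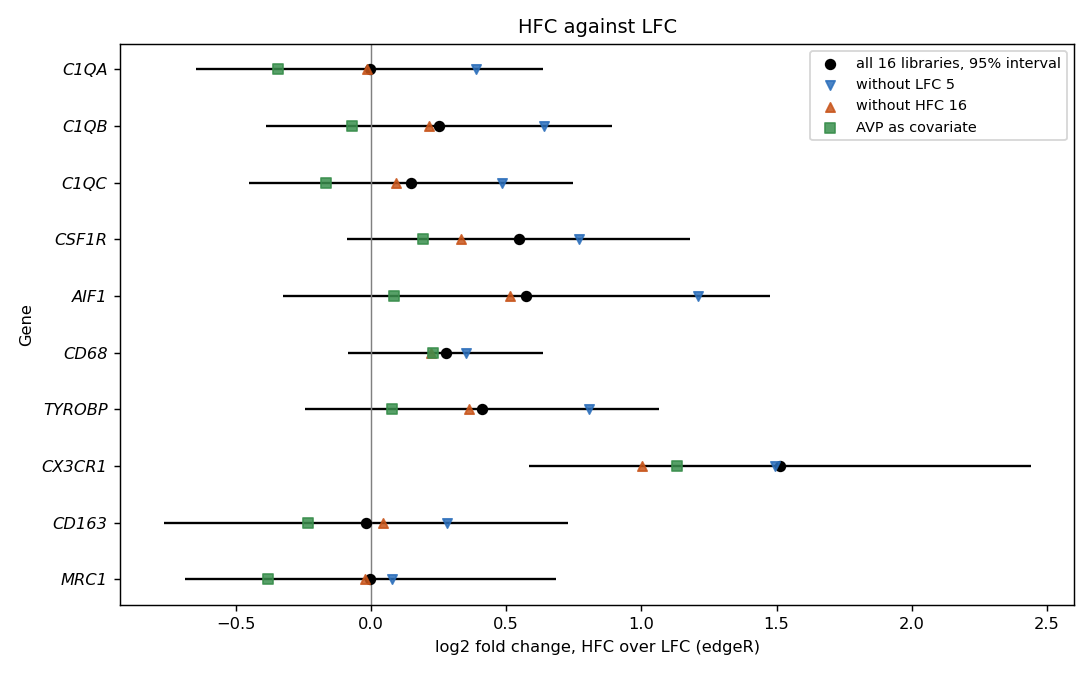
Log2 fold change (HFC over LFC) of each marker in the edgeR fit on all 16 libraries (black, with the 95% interval), without LFC 5 (blue), without HFC 16 (orange) and with AVP as a covariate (green). All intervals but that of CX3CR1 cross 0. Leaving out LFC 5 moves the C1q genes, AIF1 and TYROBP to the right, and the AVP covariate moves all 10 points to the left.

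Leaving out LFC 5 raised the median log2 fold change of the 10 markers to 0.56, and C1QB, CSF1R, AIF1, TYROBP and CX3CR1 then had an unadjusted p under 0.05. The number of all genes with such a p rose as well, from 834 to 1716, and none was called. Without LFC 5, HFC 13 and HFC 14, 4 of the markers had an unadjusted p under 0.05 and the median was 0.40. Over all genes 1035 of 14431 tested had such a p in that fit. With the log2 CPM of AVP as a covariate the median fell to 0.01 with 5 of 10 above 0, and with GFAP it was 0.08 with 6 of 10 above 0. CX3CR1 had an unadjusted p under 0.05 in each of these fits. Over all genes the number with such a p was 421 of 14319 with the AVP covariate and 531 with the GFAP covariate.

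The markers spread widely among the animals of each group. LFC 5 held the highest level of 6 of the 10 genes (C1QA, C1QB, C1QC, AIF1, TYROBP and CD163), and LFC 8 the lowest of 9, all but CD68. The TMM factor of LFC 5 was the lowest (0.751, against 0.907 to 1.13 in the other libraries), and a low factor raises CPM. CD163 had 459 counts of 13.998 M in LFC 5 and 536 of 14.821 M in LFC 1. By total count alone its level was thus higher in LFC 1. HFC 14 was among the 3 highest libraries for 8 genes. The highest level exceeded the lowest 18.1-fold for CX3CR1, 9.89-fold for AIF1, 9.40-fold for CD163 and 2.08-fold for CD68, with the other 6 genes between 5.92- and 7.09-fold. PTPRC, the gene of the leukocyte surface protein CD45, did not share the peak in LFC 5. It was at 4.09 CPM there, its lowest value in the 16 libraries, against 5.53 to 16.3 CPM in the others.

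Over the 16 libraries the genes rose and fell together to unequal degrees. All 45 pairs had a Pearson r above 0 on log2 CPM, with a lowest value of 0.12, a median of 0.71 and a highest value of 0.98; the lowest Spearman rho was -0.04. The adjacent genes C1QB and C1QC gave the highest r (0.98), and the ratio of C1QB to C1QC stayed between 0.909 and 1.25 in all libraries. TYROBP followed C1QB nearly as well (r = 0.97). CX3CR1 and CD163 gave the lowest r (0.12), and their ratio ran from 0.0566 in LFC 5 to 1.90 in HFC 16, where CX3CR1 had its highest level and CD163 was at 12.7 CPM. The median r with the other 9 markers was 0.38 for CD68 and 0.52 for CX3CR1, and between 0.68 and 0.83 for each of the other 8. These libraries share their scaling and the outlying samples named above, so the values are a description. Without LFC 5, CX3CR1 with CSF1R was at r = 0.88 (0.78 with it) and with CD163 at 0.21.

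**Figure D3:**
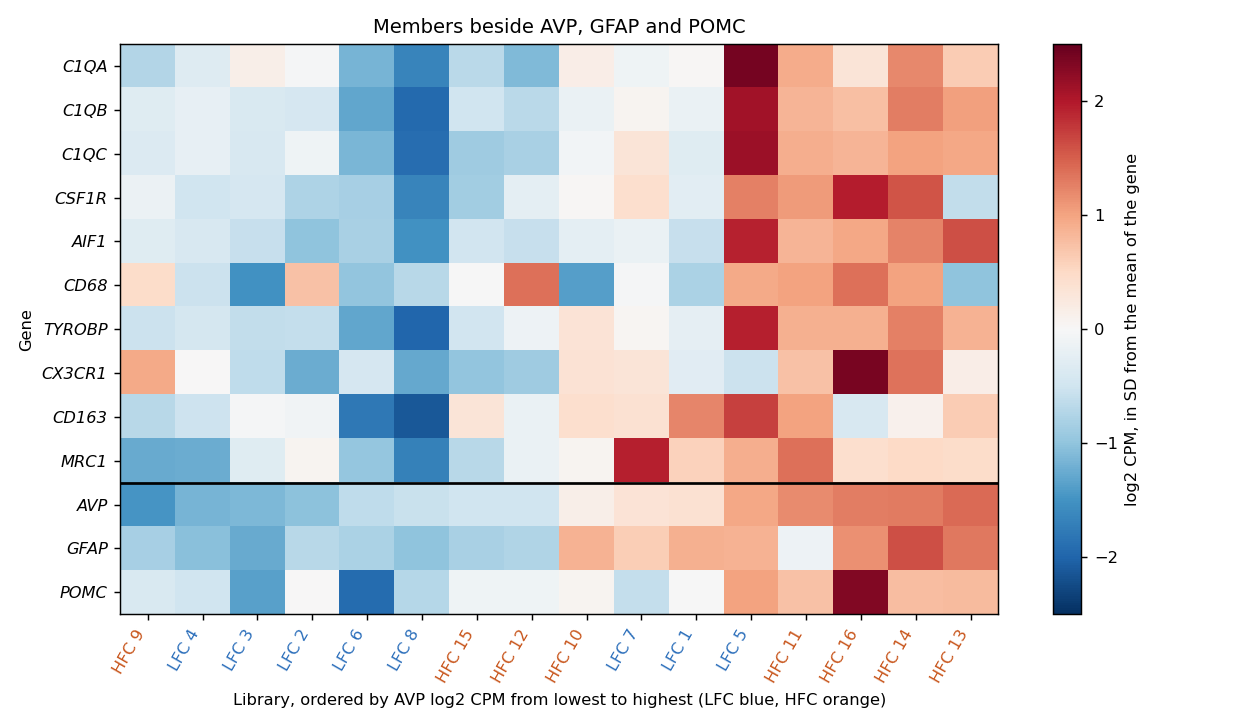
Log2 CPM of the 10 markers, with AVP, GFAP and POMC below the line, in units of SD from the mean of each gene, with libraries ordered from the lowest to the highest AVP. LFC 5 is the reddest column for the C1q genes, AIF1, TYROBP and CD163, HFC 16 for CSF1R and CX3CR1, and LFC 8 is the bluest column.

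The genes whose pattern over the 16 libraries was most like the mean of the 10 markers were sought among 13154 other tested genes with a symbol. The 10 nearest, by Pearson r, were FCGR3A (0.97), CD40 (0.96), PTPN6 (0.95), ITGB2 (0.95), ARHGAP45 (0.95), CDC42EP5 (0.95), SLA-DMB (0.95), TNFAIP8L2 (0.94), MYO1F (0.94) and FCER1G (0.94). FCGR3A is an Fc receptor for IgG, FCER1G the signalling chain of Fc receptors, PTPN6 a phosphatase of blood cells and ITGB2 the shared chain of the leukocyte integrins. Without LFC 5 each of the 10 kept an r between 0.93 and 0.96. PTPN6 averaged 26.7 ± 5.14 CPM (LFC) against 32.7 ± 5.57 CPM (HFC; SD, n = 8 each; unadjusted p = 0.0416, edgeR adjusted p = 0.839), and the other 9 had an unadjusted p above 0.05.

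The second comparison set each marker against AVP and GFAP. AVP was at 0 to 0.825 CPM in 8 libraries (LFC 2, 3, 4, 6 and 8, HFC 9, 12 and 15) and at 3.64 to 58.3 CPM in the other 8. GFAP was at 0.504 to 1.87 CPM in the first of these and at 6.38 to 234 CPM in the second. AVP and GFAP went together over the 16 libraries (r = 0.88, permutation p = 3e-05; rho = 0.90, permutation p = 2e-05; r = 0.83 without the 2 libraries farthest from the median), so relations to one cannot be told apart from relations to the other. AVP had a log2 fold change (HFC over LFC) of 2.44 (from 4.46 ± 7.59 to 23.6 ± 24.6 CPM; SD, n = 8 each; SE 1.19, edgeR adjusted p = 0.873). Without LFC 5 it was 3.60 (unadjusted p = 0.00873, edgeR adjusted p = 0.353).

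All 10 markers had a positive correlation with AVP, with a median r of 0.70 against 0.01 over all genes. A permutation test with adjustment over all 14318 genes called 7 of the 10, all positive, where 7.12% of all genes were called positive and 6.46% negative. AIF1 gave the highest r (0.81, permutation p = 0.00013, adjusted p = 0.00600; rho 0.69), followed by TYROBP (0.78, permutation p = 0.00020, adjusted p = 0.00727; rho 0.82). C1QB (0.74), C1QC (0.72), MRC1 (0.72), CSF1R (0.69) and C1QA (0.68) were called at adjusted p between 0.0123 and 0.0332. Not called were CD163 (r = 0.54, adjusted p = 0.113), CX3CR1 (0.53, 0.115) and CD68 (0.30, 0.394). The 5 libraries with the most AVP (LFC 5, HFC 11, HFC 13, HFC 14 and HFC 16) held the 5 highest levels of AIF1, TYROBP and each C1q gene. By rank, CSF1R was not called (rho 0.54, permutation p = 0.0328, adjusted p = 0.138) and the other 6 were, among 1539 genes called.

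**Figure D4:**
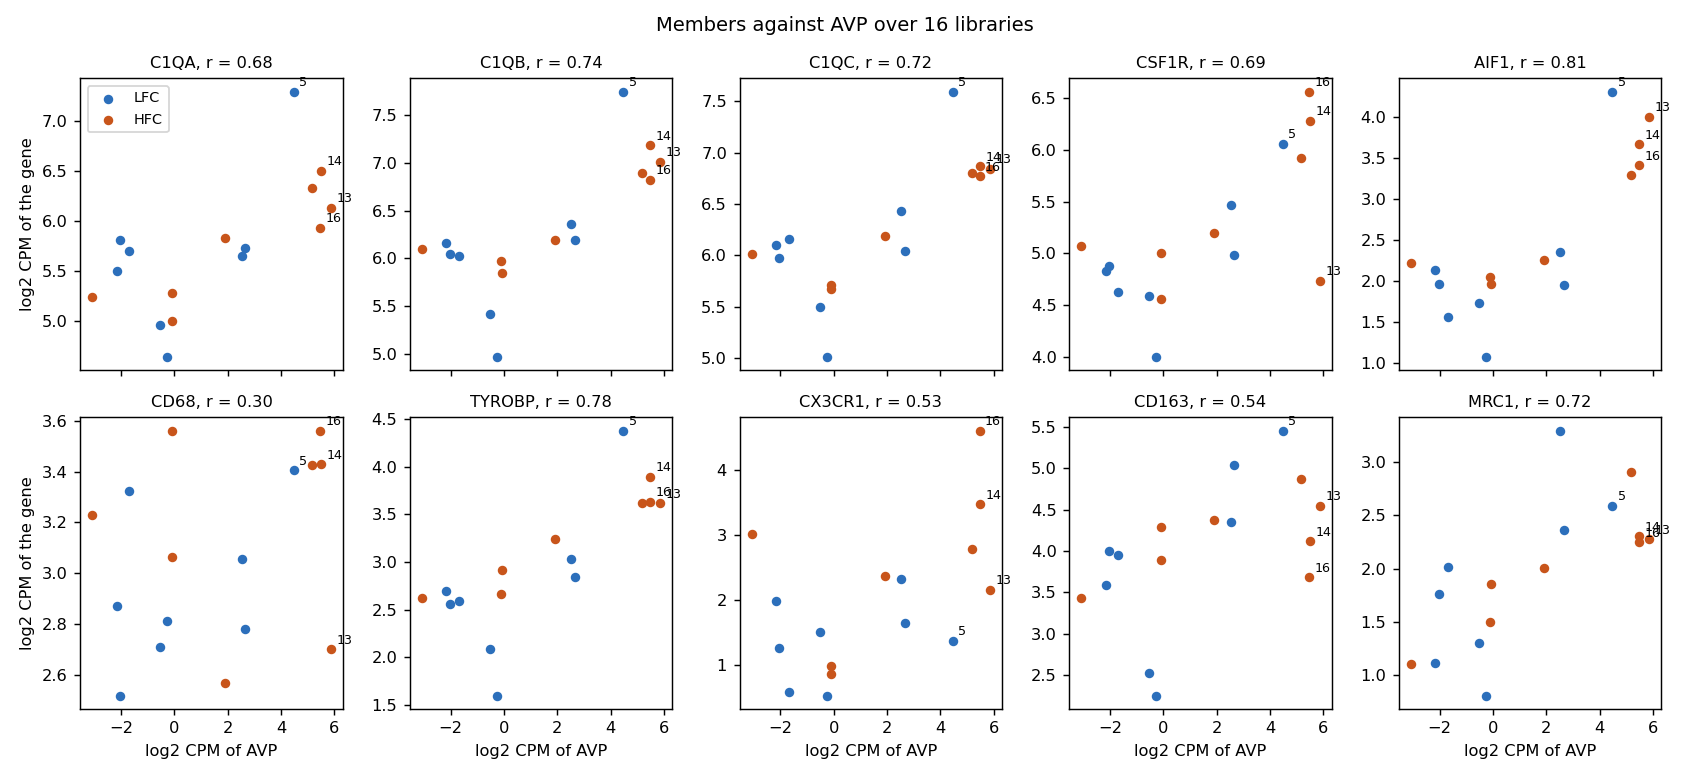
Log2 CPM of each marker against log2 CPM of AVP in 16 libraries (LFC blue, HFC orange), with Pearson r above each panel and the numbers 5, 13, 14 and 16 beside LFC 5, HFC 13, HFC 14 and HFC 16. For AIF1, TYROBP and the C1q genes the 5 libraries with the highest AVP hold the 5 highest levels, whereas CD68 is scattered.

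With GFAP the median r of the 10 was 0.67 against 0.00 over all genes, and 5 were called (TYROBP 0.77, AIF1 0.73, C1QB 0.72, C1QC 0.71 and C1QA 0.66, at adjusted p between 0.0162 and 0.0458 by the permutation test). Of all genes 4.09% were called positive and 4.4% negative. MRC1 (0.67, adjusted p = 0.0504) and CSF1R (0.66, adjusted p = 0.0552) lay just outside the threshold. CX3CR1 was at 0.58, CD163 at 0.55 and CD68 at 0.18, none of them called.

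The number of markers called changed when few libraries were left out. HFC 13 and HFC 14 were the libraries farthest from the median for both AVP and GFAP, and they were also among the 3 farthest out on the first principal component. Without these 2, 3 markers were called with AVP (CSF1R, AIF1 and TYROBP) and none with GFAP, among 662 and 31 genes called. The r with AVP was still 0.62 or more for the 7 markers called in all libraries. Without LFC 5 as well, none was called with either, with r between 0.56 and 0.75 for the same 7 with AVP; over all genes 548 and 46 were then called. Centred on the mean of each group, 6 markers were called with AVP and 4 with GFAP, among 1734 and 1032 genes called. Under scaling by total count it was 4 and 3 markers, among 1144 and 605 genes.

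With a single library left out, 5 to 7 markers were called with AVP, among 1088 to 3812 genes called. AIF1, TYROBP, C1QB and C1QC were called in all 16 such sets, whereas CSF1R was lost without LFC 2, LFC 4, LFC 5, LFC 6, HFC 11 or HFC 14, C1QA without LFC 6, HFC 9 or HFC 14, and MRC1 without HFC 9, where CX3CR1 was called (r = 0.70). With GFAP the count fell to 1 without LFC 8 or HFC 14, to 2 without LFC 6 and to 3 without HFC 9 or HFC 13. It rose to 7 without HFC 11. Over all genes the calls with GFAP ran from 333 to 2091 in these sets.

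Within the groups the markers kept a positive r with AVP, from 0.31 (CX3CR1) to 0.72 (CSF1R) in LFC and from 0.03 (CD68) to 0.96 (TYROBP) in HFC. In HFC, TYROBP had an exact permutation p of 0.000496 and MRC1 (r = 0.89) of 0.00141. In LFC the smallest exact permutation p was 0.0379, for AIF1 (r = 0.69). No marker and no other gene was called within either group of 8 after adjustment. With GFAP the r within LFC ran from 0.42 (CX3CR1) to 0.81 (MRC1), and within HFC from -0.22 (CD68) to 0.87 (TYROBP).

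The 8 libraries of low AVP held at most 14 AVP counts each and the others at least 67, so among the low ones the AVP level itself was poorly measured. Within these 8, a set looked at after the data were seen, 8 of the 10 markers had a negative r with AVP, CX3CR1 (-0.74) and C1QC (-0.72) the most. Within the 8 libraries of higher AVP, r was 0.84 for AIF1 (exact permutation p = 0.0175), 0.72 for C1QB (exact permutation p = 0.0448), 0.67 for TYROBP and 0.66 for C1QC, and it was below 0 for CD163 (-0.18) and MRC1 (-0.11). With GFAP, r within the upper 8 was between -0.62 (MRC1) and 0.28 (AIF1). For MRC1 and CD163 the r within the 8 low libraries was 0.07 and -0.19, so neither set alone held the pooled relation.

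**Figure D5:**
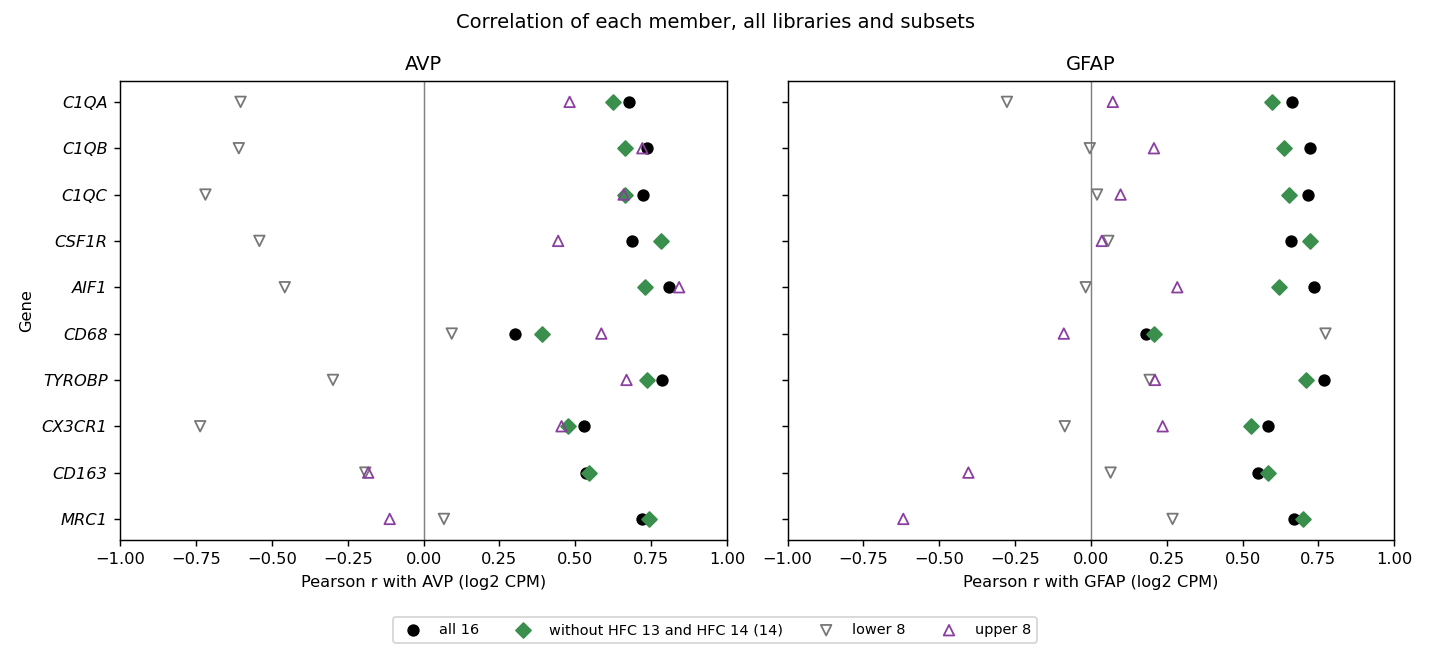
Pearson r of each marker with AVP (left) and GFAP (right) over all 16 libraries (black), without HFC 13 and HFC 14 (green), and within the 8 libraries with the lower (grey) and the upper (violet) level of AVP or GFAP. The green points lie near the black ones, whereas within the lower 8 most points with AVP lie below 0.

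Other genes of the same cells and pathways were counted by list. For each list the counts, the genes called in the relations and the genes with the 2 highest and 2 lowest log2 fold changes (HFC over LFC) are given. Genes with an unadjusted edgeR p under 0.05 were named after their values were seen, and none of them passed after adjustment. Over all tested genes, 4.29% had such a p and were higher in HFC, and 1.53% were lower. With AVP 7.12% of all genes were called positive and 6.46% negative, and with GFAP 4.09% and 4.4%. Whether the count of any list differs from these shares was not tested. IRF8, C3, C4A, POMC and LUM are, like CX3CR1, genes that the study named on these libraries. Values without HFC 16 come from edgeR and were computed after the data were seen.

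Among complement components and receptors beyond C1q, 3 of 17 tested had an unadjusted p under 0.05 (C2, ITGAM and CD55, all higher in HFC), and the median log2 fold change was 0.46. CD55, which protects cells from complement, averaged 8.52 ± 3.91 CPM (LFC) and 28.02 ± 40.04 CPM (HFC; SD, n = 8 each), with a log2 fold change of 1.71 (SE 0.58), or 0.73 without HFC 16. Without that library C2 alone of the 3 kept an unadjusted p under 0.05. CFB, a protein of the alternative pathway, was next at 0.83 (SE 0.46), and CD59 (-0.28) and CFP (-0.14) were lowest. With AVP, 8 of the 17 were called, all positive: C1R and C1S, the proteases that bind C1q, and C3, C4A, CFB, SERPING1, C5AR1 and ITGB2.

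Genes that signal with TYROBP or in the same way were also related to AVP. Of 9 tested receptors and kinases of ITAM signalling, 6 were called (TREM2, FCER1G, FCGR3A, SYK, INPP5D and VAV1), with a median r of 0.69. In the group comparison TREM2, FCGR1A and VAV1 had an unadjusted p under 0.05. TREM2, a lipid receptor that signals through TYROBP, averaged 1.12 ± 1.21 CPM (LFC) and 4.11 ± 3.54 CPM (HFC; SD, n = 8 each), and was highest in HFC 16 at 11.3 CPM. On the log2 scale the fold change was 1.92 (SE 0.63), with an adjusted p of 0.612 by edgeR. Without HFC 16 it was 1.49 (unadjusted p = 0.0253, edgeR adjusted p = 1), and FCGR1A and VAV1 were no longer under 0.05. FCGR1A was at 0.81, and PLCG2 (-0.12) and HCST (0.27) had the lowest log2 fold changes.

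The ligands of CSF1R and CX3CR1 were all measured. IL34, a CSF1R ligand made by neurons and epithelia, averaged 15.8 ± 10.1 CPM (LFC) and 32.2 ± 22.6 CPM (HFC; SD, n = 8 each), with a log2 fold change of 1.03 (SE 0.45, edgeR unadjusted p = 0.0333, adjusted p = 0.809), or 0.76 without HFC 16 (edgeR unadjusted p = 0.0971, adjusted p = 1). It gave r = 0.89 with AVP (permutation p = 1e-05, the smallest that the permutations can give; adjusted p = 0.00217; rho = 0.88) and 0.85 without HFC 13 and HFC 14. CSF1 gave r = 0.74 with AVP and a log2 fold change of 0.36. CX3CL1, which encodes fractalkine, gave an r with AVP of 0.21 and a log2 fold change of 0.38 (SE 0.16; edgeR unadjusted p = 0.0262, adjusted p = 0.761), or 0.27 without HFC 16 (edgeR unadjusted p = 0.0691, adjusted p = 1).

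Genes that mark microglia of the brain parenchyma more narrowly gave mixed values. P2RY12, a nucleotide receptor, averaged 1.48 ± 0.61 CPM (LFC) and 4.64 ± 4.43 CPM (HFC; SD, n = 8 each). On the log2 scale the fold change was 1.64 (SE 0.46), with an adjusted p of 0.612 by edgeR. The fructose transporter gene SLC2A5 had a log2 fold change of 2.36 from a mean of 0.451 ± 0.492 CPM in LFC, GPR34 of 0.78 and SALL1 of -0.13. P2RY12, SLC2A5 and GPR34 had an unadjusted p under 0.05. Like CX3CR1, P2RY12 and SLC2A5 were highest in HFC 16, at 14.7 and 6.32 CPM. Without it their log2 fold changes were 1.11 (unadjusted p = 0.00775, edgeR adjusted p = 0.953) and 1.89 (unadjusted p = 0.0186, edgeR adjusted p = 1), and GPR34, at 0.56, was no longer under 0.05. With AVP, TMEM119 (r = 0.85) and SLC2A5 (0.83) were called among 7 tested, and P2RY12 (0.54) was not.

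For macrophages of tissues and brain borders, 1 of 8 tested had an unadjusted p under 0.05 (F13A1, log2 fold change 0.92). MS4A7 was next at 0.61, and FOLR2 (-0.08) and SLC40A1 (0.03) were lowest. F13A1, MS4A7, MSR1 and HMOX1 were called with AVP. Of 7 transcription factors of myeloid cells, IRF8 and CEBPA had such a p in the group comparison (log2 fold changes 0.98 and 0.71). MAF was at 0.86, IKZF1 at 0.30 and RUNX1 at 0.17, and SPI1, IRF8 and MAF were called with AVP.

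Genes of antigen presentation by MHC class II gave 0 of 6 tested at an unadjusted p under 0.05 between the groups, with log2 fold changes from -0.20 (CD74 and SLA-DQB1) to 0.13 (SLA-DMB) and 0.24 (CD86). With AVP 5 of the 6 were called (CD74, CIITA, SLA-DQB1, SLA-DMA and SLA-DMB). In the list of the macrophage lysosome, 1 of 11 had an unadjusted p under 0.05 (LAPTM5, log2 fold change 0.60, or 0.41 and no longer under 0.05 without HFC 16). CTSS was at 0.36, CD63 at -0.18 and GRN at -0.26. CTSS and LAPTM5 were called positive with AVP and LIPA, an acid lipase, negative (r = -0.71).

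With GFAP none of these lists had more calls than with AVP. Positive calls were C1R, C1S, C3, C4A and ITGB2 of complement, TREM2, FCER1G, FCGR3A and VAV1 of ITAM signalling, IL34 of the ligands, SPI1, IRF8 and MAF of the transcription factors, TMEM119 and SLC2A5 of microglia, F13A1 and HMOX1 of border macrophages, CD74 and SLA-DMA of MHC class II, and CTSL of the lysosome.

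Markers of other cells moved with the results to different degrees, and their part in them was not tested. Of 5 general leukocyte genes, CD53 had an unadjusted p under 0.05 (log2 fold change 0.71), FERMT3 was at 0.23 and CORO1A and LCP1 at 0.01 and 0.00. CD53, CORO1A and FERMT3 were called with AVP, and CD53 and FERMT3 with GFAP. The summed level of the list ran from 54.2 to 111 CPM in LFC and from 52.1 to 119 CPM in HFC. For lymphocytes, 0 of 7 tested had an unadjusted p under 0.05 (CD79B 0.92, CD2 0.54, NKG7 0.32, CD79A -0.36), and CD2 and CD3D were called with AVP and GFAP. Their summed level was 38.0 to 63.9 CPM in LFC and 38.0 to 83.4 CPM in HFC, and the B-cell gene MS4A1 was under 1 CPM in all libraries. For monocytes and neutrophils, 0 of 4 tested differed at that p (CD14 0.44, VCAN 0.19, CSF3R -0.41), and CD14 was called with AVP (r = 0.77) and GFAP. The neutrophil gene MPO stayed under 1 CPM in all libraries, and the summed level was 14.04 to 23.9 CPM in LFC and 16.4 to 30.2 CPM in HFC.

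The posterior lobe list had a summed level of 23.2 to 152 CPM in LFC and 21.9 to 381 CPM in HFC. RAX was its gene with an unadjusted p under 0.05 of 6 tested (log2 fold change 3.90), SLC1A3 was at 0.20 and AQP4 at -0.09, and OXT and RAX were called with AVP and with GFAP. The 3 melanotroph genes of the intermediate lobe all had such a p (POMC 1.36, PCSK2 5.34, PAX7 5.31), their summed level was 5947.1 to 77320.6 CPM in LFC and 22889.5 to 245934.5 CPM in HFC, and POMC was called with AVP and GFAP. POMC and PCSK2, like CX3CR1 and CSF1R, were highest in HFC 16. Without HFC 16 the log2 fold change was 0.70 for POMC, no longer under 0.05, 3.21 for PCSK2, 2.86 for PAX7 and 3.02 for RAX. Of 5 anterior pituitary hormone genes PRL had such a p (-1.86), with TSHB at -0.72, FSHB at -0.30 and GH1 at -0.14. None was called with AVP (median r -0.52), and PRL was called negative with GFAP (r = -0.67). The summed level of the hormone genes was 52375.9 to 165953.6 CPM in LFC and 13949.4 to 169292.4 CPM in HFC.

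Endothelium gave 0 of 7 in the group comparison (ESAM 0.02, CDH5 -0.07, VWF -0.23, TEK -0.26) and 0 in the relations, with a summed level of 218 to 359 CPM in LFC and 176 to 364 CPM in HFC. Fibroblast genes gave 1 of 6 between the groups (LUM 1.33, or 1.15 and no longer under 0.05 without HFC 16, DCN 0.54, PDGFRA 0.06, COL1A2 -0.30), and COL1A1 and COL3A1 were called with AVP and GFAP, with a summed level of 209 to 1030.2 CPM in LFC and 197 to 1025.4 CPM in HFC. Erythrocyte genes gave 0 of 3 (ALAS2 -0.11, HBB -0.35, AHSP -0.74) and 0 in the relations, with 79.0 to 1275.5 CPM in LFC and 80.6 to 894 CPM in HFC, and SLC4A1 was under 1 CPM in all libraries.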

How the data were processed

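Non-stranded TruSeq libraries of 16 pituitaries were read from a single end. The authors cleaned the reads, aligned them to Sscrofa11.1 with Ensembl gene models (the submitters' processing notes name FastQC, STAR, RSEM and DESeq2, and the methods name Bowtie 2 as well), and deposited raw counts per gene as whole numbers with 1 column per library. A second deposited table holds the authors' own comparison and gave only symbols and positions here. Symbols came from that table for 10091 genes and from a table of gene identifiers for 5454, with 379 named by an overlap of at least 50% with 1 RefSeq gene of Sscrofa11.1. The 12 genes of the lists without a row of their own were not analysed here.

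The members and lists were chosen with earlier results of these data known. All 10 members were named, and of the 17 other lists the genes called in any comparison and those with the 2 highest and 2 lowest log2 fold changes, except a few genes that are not reported here. The genes most alike were the 10 with the highest r to the mean of the standardised log2 CPM of the members. LFC and HFC were compared in edgeR 4.0.16 under R 4.3.3 (quasi-likelihood, TMM, filterByExpr, no covariate), with Benjamini-Hochberg adjustment over 14319 genes. SE is the log2 fold change divided by the square root of F, and 95% intervals are 1.96 SE. Log2 CPM used a prior count of 2. Pearson r and Spearman rho with AVP and GFAP were tested with 100000 permutations of the libraries, adjusted over 14318 genes, and by exact permutation (40320 orders) within sets of 8, all two-sided (numpy 2.4.6, scipy 1.17.1). The libraries were taken as separate clusters only where the largest gap exceeded 0.333 of the range. It was 0.223 for AVP and 0.255 for GFAP. Alternatives were DESeq2 1.42.0, limma 3.58.1 (voom with library weights), other scalings and filters, AVP or GFAP as covariate, and fewer libraries. No 2 libraries of a group were duplicates (chi-square per degree of freedom of at least 27.1 in 56 pairs). Each library is 1 animal, and total counts of 10.973 to 23.06 M set the counting error. Its part in the spread between animals was not measured, and genes of few counts, such as AVP where it was low, were poorly measured.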

Additional observations from a re-analysis of the deposited data

Results flagged for a closer look

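In LFC, the log2 CPM of C1QA in LFC 5 was 7.30 while the other 7 libraries lay between 4.64 and 5.81, and that of AIF1 was 4.31 against 1.08 to 2.35. In both, the gap to the nearest library exceeded Dixon's 95% limit for 8 values. These were 2 of 24 sets of 8 libraries looked at (the 10 markers, AVP and GFAP in each group), where chance flags about 1 in 20.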

How the results depend on the processing

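Between the groups, no alternative called a marker. DESeq2 called 20 genes, and the other alternatives 0. The sign changed only for markers near 0 and under a covariate. C1QA was at 0.0656 (total count), 0.0207 (upper quartile), 0.00149 (at least 10 counts in every library), 0.22 (limma-voom), 0.27 (without LFC 5 and HFC 14) and 0.19 (without LFC 5, HFC 13 and HFC 14). CD163 was at 0.0331, 0.00339, 0.54, 0.30 and 0.23 under the same settings other than the count minimum, and MRC1 at 0.00387 (upper quartile), 0.22 (limma-voom), 0.0503 (without LFC 5 and HFC 14) and 0.0112 (without LFC 5, HFC 13 and HFC 14). With AVP as covariate C1QB was at -0.0686 and C1QC at -0.17, and with GFAP C1QC was at -0.10. Leaving out 1 library at a time gave -0.12 to 0.39 for C1QA, -0.17 to 0.28 for CD163, -0.18 to 0.30 for MRC1, and 0 genes called throughout.

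With AVP, 1945 genes and 7 markers were called, against 1144 and 4 under scaling by total count, 662 and 3 without HFC 13 and HFC 14, 548 and 0 without LFC 5, HFC 13 and HFC 14, and 0 and 0 within LFC, within HFC, and within the 8 libraries of lower or of upper AVP. Leaving out 1 library gave 1088 (without HFC 14) to 3812 genes (without HFC 16) and 5 to 7 markers. With GFAP, 1216 genes and 5 markers became 605 and 3 under total count, 31 and 0 without HFC 13 and HFC 14, 46 and 0 without LFC 5, HFC 13 and HFC 14, and 0 and 0 within LFC, within HFC and within the lower or upper 8. Leaving out 1 library gave 333 (without HFC 14) to 2091 genes (without HFC 16) and 1 marker (without LFC 8 or HFC 14) to 7 (without HFC 11). Smaller sets have fewer orders to permute, and beyond that the cause was not tested.

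The sign of r turned in these subsets. Within the lower 8 of AVP, chosen after seeing the data as were all sets of 8 by level, r was -0.60 for C1QA, -0.61 for C1QB, -0.72 for C1QC, -0.54 for CSF1R, -0.46 for AIF1, -0.30 for TYROBP, -0.74 for CX3CR1 and -0.19 for CD163. Within the upper 8 it was -0.18 for CD163 and -0.11 for MRC1. With GFAP it was -0.28 for C1QA, -0.0038 for C1QB, -0.0173 for AIF1 and -0.0863 for CX3CR1 in the lower 8, -0.40 for CD163, -0.0895 for CD68 and -0.62 for MRC1 in the upper 8, and -0.22 for CD68 within HFC. No paired analysis was made, because the groups held different, unrelated animals and the labels give no pairs.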
